A study of Mus musculus with 8 samples.

Results

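Potassium channel genes were examined in gastrocnemius, a calf muscle in which fast fibres predominate, from mice with serum-transfer arthritis. The genes were chosen by name: symbols in the count tables that start with Kcn, which gave 93 of 21833 genes. They were assigned by symbol to 30 voltage-gated pore subunits, 10 modifier subunits of voltage-gated channels, 15 inward rectifier pore subunits, 8 pore subunits activated by calcium, sodium or related signals, 14 tandem-pore-domain (K2P) subunits and 16 auxiliary subunits. Bulk RNA was sequenced from 8 male C57BL/6J mice aged 12 weeks, all of which had 100 µL of pooled serum from arthritic K/BxN mice injected into the peritoneum on day 0 and again on day 2. Serum was the sole agent in the RA group (n = 4 mice), while in the RA+Dipy group (n = 4 mice) daily dipyridamole (25 mg/kg) began on day 0 as well. The muscle was collected on day 16. The drug inhibits equilibrative nucleoside transporters and several phosphodiesterases. All mice carried the transferred arthritis, and muscle of mice without arthritis was not analysed here, so no level below describes healthy muscle. The genotype label names K/BxN for all 8 samples and the treatment label names dipyridamole for all 8, while the titles and the design text separate the groups as used here.

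Potassium channels let potassium leave or enter the cell along its gradient and so set the resting potential of a muscle fibre and end its action potentials. Pore loops, contributed by the subunits of a tetramer or by the paired loops of a K2P dimer, line the selectivity filter, a short stretch of peptide whose backbone replaces the water around a potassium ion. Voltage-gated channels open on depolarisation, inward rectifiers hold the membrane near the potassium equilibrium potential, and ATP-sensitive channels link the membrane to the energy state of the fibre. Calcium-activated channels follow intracellular calcium, K2P channels carry background current, and modifier and auxiliary subunits change the gating or the placement of a pore they join.

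The coding sequence of the selectivity filter shows what the pore subunits share, and it is printed for 7 of the 9 members with the highest mean levels. Each line is 45 bases of coding strand, 5′ to 3′, from GENCODE vM21 transcripts, with the 5 filter codons in capitals.
Kcnj11: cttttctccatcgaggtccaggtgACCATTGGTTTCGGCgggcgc
Kcna7: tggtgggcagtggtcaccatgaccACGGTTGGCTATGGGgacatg
Kcnc4: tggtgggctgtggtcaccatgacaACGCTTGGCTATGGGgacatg
Kcng4: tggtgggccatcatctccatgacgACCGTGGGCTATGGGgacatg
Kcnj2: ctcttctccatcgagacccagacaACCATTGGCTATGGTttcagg
Kcnj8: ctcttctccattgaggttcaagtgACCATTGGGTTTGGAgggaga
Kcnn1: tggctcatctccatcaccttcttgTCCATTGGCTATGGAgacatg
These stretches lie, in GRCm38, at chr7:46099490-46099534 (minus strand, the single coding exon of Kcnj11), chr7:45409437-45409481 (plus, exon 2 of 2 of Kcna7) and chr3:107447793-107447837 (minus, exon 2 of 4 of Kcnc4). The next are at chr8:119625904-119625948 (minus, exon 3 of 3 of Kcng4) and chr11:111072183-111072227 (plus, exon 2 of 2 of Kcnj2). The last are at chr6:142566442-142566486 (minus, exon 3 of 3 of Kcnj8) and chr8:70850651-70850695 (minus, exon 4 of 9 of Kcnn1).

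The filter codons were searched in frame, on the coding strand of 1 complete transcript per gene, as a threonine or serine codon, a valine, isoleucine or leucine codon, GGN, then TAT, TAC, TTT or TTC, and GGN. They were found in 75 of the 93 members, against 158 of 21616 genes with a complete coding transcript (0.731%). All 30 voltage-gated, 15 inward rectifier, 10 modifier and 8 calcium- or sodium-activated members held them, as did 12 of the 14 K2P members. The K2P genes without a match were Kcnk1 and Kcnk7, and none of the 16 auxiliary members had a match. A single match was found in 64 members, and 11 K2P members held 2. The fourth codon was for tyrosine in every match of 51 members, for phenylalanine in every match of 16, and for 1 of each in 8 K2P members, Kcnk3 among them. Kcnj11 and Kcnj8, the pore subunits of ATP-sensitive channels, were the sole inward rectifiers with the phenylalanine codon. The other 14 members with it in every match were all 8 Kcnh genes, Kcnk2, Kcnk12, Kcnk13, Kcnt1, Kcnt2 and Kcnu1. A match describes these letters and says nothing of the current a subunit carries.

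Totals per library ran from 16.4 to 50.6 M (mega) counts, and for a gene with no count the upper limit lay between 0.0592 and 0.183 CPM. RA replicate 4 and RA+Dipy replicate 1 stood apart from the other 6 libraries. Over 3205 well expressed genes they deviated from the 8-library median with a spread of 1.17 and 0.80 log2 units, against 0.17 to 0.34 in the others. For part of the values printed below, the value without this pair stands beside it. Other values that leaving the pair out moves, many mean TPM levels among them, are printed over all 8 libraries only. The 8 fast fibre markers (Myh4, Myh1, Acta1, Ckm, Pvalb, Atp2a1, Mylpf and Tnnt3) summed to between 164666 and 228754 CPM in RA and between 168167 and 188099 CPM in RA+Dipy, and all 8 were detected in every library. The highest sum of any other marker list was 1545 CPM.

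Levels between genes are compared as TPM, counts per kilobase of merged exons scaled to the same total in every library. By this measure 23 of the 93 members had a mean of at least 1 TPM over the 8 libraries, and 10 had at least 10 TPM. In every single library 16 members reached 1 TPM, and in the 6 libraries without the pair that stood apart 19 did. The 10 highest members held 80.4% to 91.4% of the summed Kcn level of a library. That sum was 501, 535, 451 and 222 TPM in RA replicates 1 to 4 and 218, 548, 486 and 584 TPM in RA+Dipy replicates 1 to 4. The low sums in TPM were those of the libraries that stood apart. In RA replicate 4 the low level depended on the scale for some genes. Kcnc4 and Kcnj12 were there the lowest of the RA libraries in TPM (37.1 and 20.9). In CPM scaled by TMM they were the highest of RA (95.5 and 40.4), while Kcnj11 and Kcna7 were lowest on both scales.

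**Figure D1:**
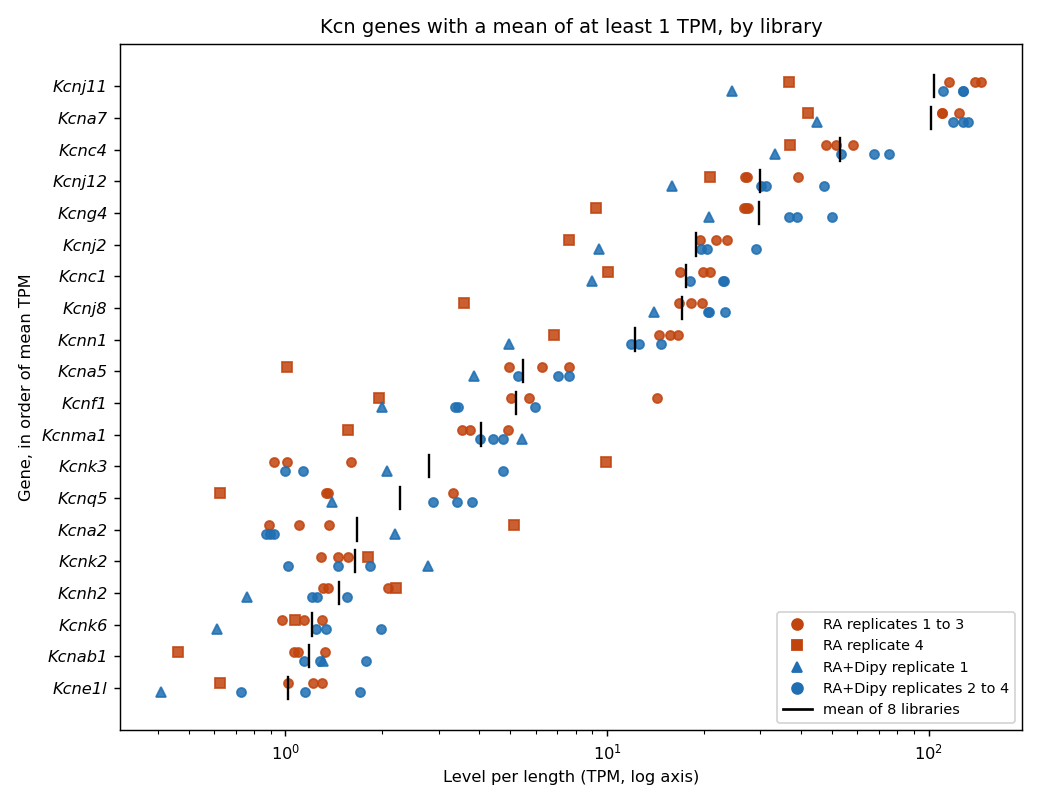
Level of 20 of the 23 Kcn genes with a mean of at least 1 TPM (rows) in the 8 libraries (points; x axis, TPM on a log scale), with the mean over the libraries as a black line. Kcnj11 and Kcna7 lead. On this scale RA replicate 4 (squares) and RA+Dipy replicate 1 (triangles) lie to the left of the other libraries for the 8 highest genes.

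Voltage-gated pore subunits made up a mean of 46.9% of the summed Kcn level (44.1% to 50.6% across libraries), with 15 of 30 members past the count filter. Kcna7, a Kv1 subunit known chiefly from skeletal muscle and heart, led them with 110, 124, 110 and 42.3 TPM in RA replicates 1 to 4 and 45.1, 128, 119 and 133 TPM in RA+Dipy replicates 1 to 4. Its low values were those of the pair of libraries that stood apart, and it was the first or the second Kcn gene in all 8 libraries. Kcnc4, a fast-inactivating Kv3 subunit that muscle fibres use in repolarisation, came next at 53.1 ± 14.2 TPM (SD, n = 8). Kcnc1, another Kv3 subunit and one best known from fast-firing neurons, had 17.6 ± 5.43 TPM. Kcnq5, a Kv7 subunit of slowly activating channels, had 2.27 ± 1.21 TPM. Kcna5, a delayed rectifier of muscle and heart, had 5.46 ± 2.24 TPM. Kcna1 and Kcna2, which sit beside the nodes of myelinated axons, were far below Kcna7 at 0.367 ± 0.192 and 1.67 ± 1.46 TPM. Over the 6 libraries without the pair that stood apart, Kcna2 had a mean of 1.01 TPM. The Kv4 genes, the transient outward channels of heart and neurons, summed to between 0.241 and 0.566 TPM in all.

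Inward rectifiers made up 37.3% of the summed level (29.8% to 42.6%) with 6 of 15 members past the count filter. Kcnj11, the pore of the ATP-sensitive channel of the fibre membrane, had 146, 139, 116 and 36.8 TPM in RA replicates 1 to 4 and 24.4, 128, 111 and 128 TPM in RA+Dipy replicates 1 to 4. It was the first Kcn gene in 3 libraries and ranked between 633 and 2323 among all genes of a library. Kcnj12 and Kcnj2, the strong inward rectifiers that hold the resting potential, had 29.9 ± 9.92 and 18.9 ± 7.12 TPM (SD, n = 8). Kcnj8, the ATP-sensitive pore of vascular smooth muscle and pericytes, had 17.1 ± 6.15 TPM. Kcnj15, a weaker rectifier best known from epithelia, had 0.189 ± 0.231 TPM, and Kcnj10, the main glial rectifier, had 0.065 TPM and stayed below the count filter. Muscle, vessels, nerve and blood are read together in bulk tissue, where fewer cells of a type and less RNA per cell cannot be told apart.

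The sulphonylurea receptors that join the ATP-sensitive pores were set beside them. Abcc9, the receptor of muscle and vessels, had 39.3 ± 19 TPM (SD, n = 8), and Abcc8, the receptor of pancreas and brain, 1.31 ± 0.455 TPM. Each pore gene lies next to a receptor gene on its chromosome: Kcnj11 (chr7:46093953-46100764) beside Abcc8 (chr7:46104523-46180033), and Kcnj8 (chr6:142564837-142571614) beside Abcc9 (chr6:142587862-142702315). Kcnj11 and Abcc8 were not matched in level, since Kcnj11 stood at 24.4 TPM or above and Abcc8 at 2.31 TPM or below in every library. Kcnj8 and Abcc9 were closer, with means of 17.1 and 39.3 TPM, and both were lowest in RA replicate 4 (3.59 and 7.25 TPM). That low was not particular to the pair, since Kcna7, Kcng4 and Kcnj2 were also lowest there (42.3, 9.24 and 7.61 TPM).

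Modifier subunits, which form no channel of their own and join other voltage-gated subunits, made up 8.07% of the summed level (5.57% to 10.8%). Kcng4, which joins Kv2 subunits, had 29.6 ± 12.4 TPM (SD, n = 8). Kcnf1, another partner of Kv2, had 5.22 ± 3.97 TPM, and 7 of the 10 modifiers were below the count filter.

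Calcium- and sodium-activated pores made up 4.34% (3.45% to 5.48%), with 7 of 8 members past the filter. Kcnn1, a small-conductance calcium-activated channel, had 12.2 ± 4.22 TPM (SD, n = 8), against 0.396 ± 0.218 TPM for Kcnn3, the relative known to appear in denervated muscle. Kcnn4, the intermediate-conductance channel of red cells, T cells and macrophages, had 0.734 ± 0.435 TPM. Kcnma1, the large-conductance channel prominent in smooth muscle, had 4.05 ± 1.19 TPM, and Kcnmb1, its smooth muscle auxiliary subunit, 0.459 ± 0.213 TPM. K2P pores made up a mean of 2.15% of the summed level, with a highest share of 6.18% in RA replicate 4, where Kcnk3 had 9.94 TPM. The auxiliary subunits made up 1.2%. Kcnab1, a cytoplasmic beta subunit of Kv1 channels, led the auxiliary genes with 1.18 ± 0.368 TPM.

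**Figure D2:**
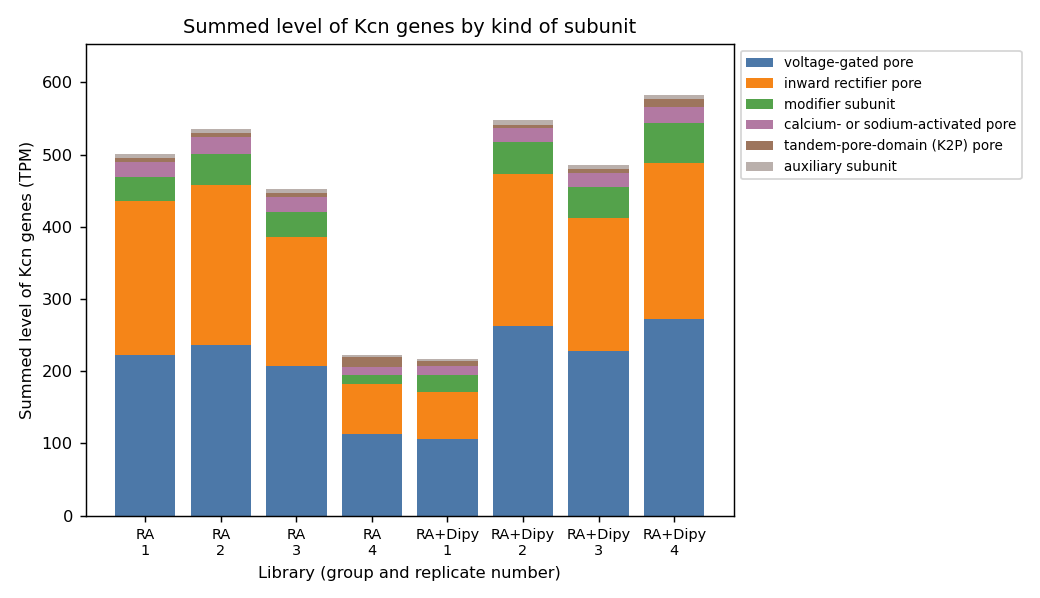
Summed level of all 93 Kcn genes (y axis, TPM) in each library (x axis), stacked by kind of subunit. Voltage-gated and inward rectifier pores fill most of each bar, and the sums of 222 and 218 TPM belong to RA replicate 4 and RA+Dipy replicate 1.

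Several neighbours in the order of levels did not differ beyond their spread over libraries. Kcnj11 and Kcna7 differed by 2.11 TPM with an SD of 17.1 over the 8 within-library differences, and Kcnj11 was the higher in 3 of 8. Kcnj12 and Kcng4 differed by 0.248 TPM (SD 7.73), with Kcnj12 the higher in 3 of 8. Kcnj2, Kcnc1 and Kcnj8 could not be ordered either. Clear steps lay between Kcna7 and Kcnc4 (48.5 TPM, SD 25.7), between Kcnc4 and Kcnj12 (23.2 TPM, SD 10.4) and between Kcng4 and Kcnj2 (10.7 TPM, SD 9.56), each in the same direction in 8 of 8 libraries. With the length of the longest single transcript in place of merged exons, 21 members had a mean of at least 1 TPM and the first 5 kept their order. Kcnma1, whose exons merge to 16976 bases, moved from place 14 to place 11.

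The members below the count filter numbered 51 and were not measured in the comparison. Kcna4 had no count in any library, 27 others had 1 to 10 counts over all 8 libraries, and 23 had more. The highest total among them was 73 counts, for Kcnc2, a Kv3 gene of neurons. Kcne3, which is known to pair with Kcnc4 in skeletal muscle, had 64 counts in all and a mean of 0.41 TPM. These names were chosen after their values were seen. With no filter on low counts edgeR called none of the 51, and no fold change is given for them.

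The comparison of RA+Dipy with RA asked which channel transcripts differ when dipyridamole is given alongside arthritogenic serum. None of the 42 tested members was called by the quasi-likelihood test of edgeR at a Benjamini-Hochberg adjusted p under 0.05, and neither was any of the 12755 genes tested (0%; smallest adjusted p = 0.882). At an unadjusted p under 0.05 there were 2 members of 42, beside 488 of all genes (3.83%). Of these 1 had a positive sign, as did 214 genes (1.68%), and 1 a negative sign, as did 274 genes (2.15%). A total of 20 members had a positive and 22 a negative log2 fold change (RA+Dipy over RA), where 52.2% of all genes had a positive one. The median log2 fold change was -0.03 over the tested members and 0.02 over all genes. In 28 of 42 members the log2 fold change was within 0.5 of 0, and the range ran from -1.26 (Kcnk3) to 2.29 (Kcnj15). The lower end rested on 1 library, since Kcnk3 had 0.89 without RA replicate 4 and 0.74 without both libraries that stood apart. DESeq2 called no gene either, with 740 genes (5.8%) and 6 members at an unadjusted p under 0.05. limma-voom, with library weights of 0.11 for RA replicate 4, 0.174 for RA+Dipy replicate 1 and 0.735 to 4.77 for the others, called 133 genes (1.04%), 111 of them with a positive sign (0.87%), of which 2 were members, both positive: Kcnj15 and Kcnq5. By the same method 3633 genes (28.5%) and 12 members had an unadjusted p under 0.05. Without those 2 libraries edgeR called no gene, and 1461 of 12796 genes (11.4%) and 5 members had an unadjusted p under 0.05.

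**Figure D3:**
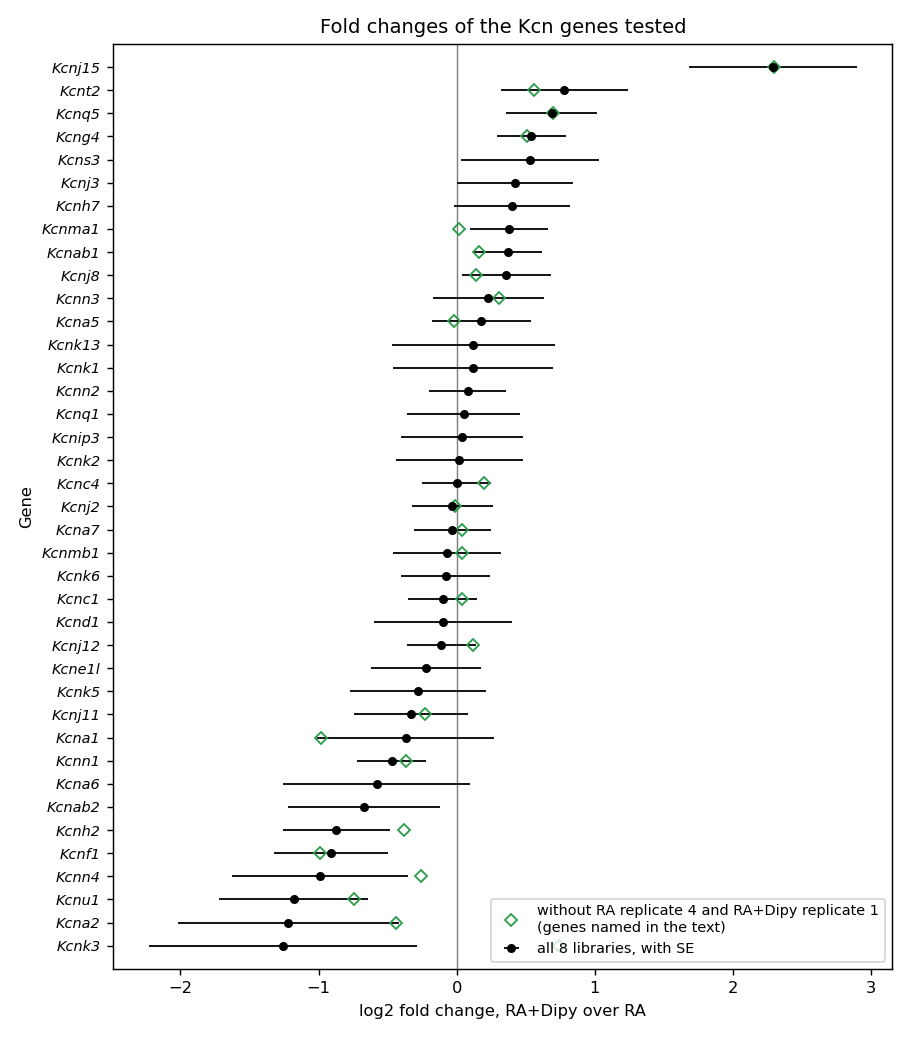
Log2 fold change (x axis, RA+Dipy over RA) of 39 of the 42 tested Kcn genes (rows), with black points and bars for the estimate and SE over 8 libraries and green diamonds for the named genes without RA replicate 4 and RA+Dipy replicate 1. Most bars cross or lie near 0, and Kcnj15 stands at 2.29 in all libraries and 2.30 without the pair.

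By kind of subunit, 3 of the 6 tested inward rectifiers, 6 of 15 voltage-gated, 2 of 3 modifier, 4 of 7 calcium- or sodium-activated, 3 of 6 K2P and 2 of 5 auxiliary members had a positive log2 fold change. The summed level of the inward rectifiers was 171 ± 70.4 TPM in RA and 170 ± 71.3 TPM in RA+Dipy (SD, n = 4 each). That of the voltage-gated pores was 195 ± 55.9 and 217 ± 76.3 TPM, and that of the modifiers 30.3 ± 12.7 and 41.3 ± 13 TPM. Over 8 libraries each of these differences was smaller than the SD of either group. Without RA replicate 4 and RA+Dipy replicate 1 the SDs were smaller (n = 3 each). The sums were then 205 ± 22.5 and 204 ± 17.5 TPM for the inward rectifiers, 222 ± 14.9 and 254 ± 23.3 TPM for the voltage-gated pores, and 36.3 ± 5.01 and 47.2 ± 6.49 TPM for the modifiers. The differences of the voltage-gated pores and of the modifiers then exceeded the SD of either group, and no test was made of the sums. These sums are in TPM, while the fold changes use counts scaled by TMM, and the scales can differ between groups. Over all libraries Kcnc4 had 48.7 TPM in RA and 57.5 TPM in RA+Dipy, but 79.6 and 79.7 CPM after TMM scaling. How much of the differences comes from the scale was not tested.

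Several of the members with the highest levels had estimates smaller than their SE. Kcng4 and Kcnn1, also among the highest and given below, had 0.54 and -0.47 (SE 0.25 each). Kcna7 had 96.8, 91.2, 99.7 and 64.7 CPM (counts relative to the TMM-scaled library size) in RA replicates 1 to 4 and 51.3, 105, 95.6 and 93.7 CPM in RA+Dipy replicates 1 to 4. The groups overlapped, with a log2 fold change of -0.03 (SE 0.28). Kcnj11 had 216, 171, 177 and 94.8 CPM in RA and 46.8, 176, 151 and 152 CPM in RA+Dipy, a log2 fold change of -0.33 (SE 0.41). Leaving out RA replicate 4 gave -0.51, leaving out RA+Dipy replicate 1 gave -0.05, and leaving out both gave -0.23. Kcnc4 stood at 79.6 ± 14 CPM in RA and 79.7 ± 16.8 CPM in RA+Dipy (SD, n = 4 each). Kcnj2, Kcnj12, Kcnc1 and Kcna5 had log2 fold changes of -0.03, -0.11, -0.10 and 0.18, each within its SE of 0.25 to 0.36. The sign of each of these, and of Kcna7 and Kcnc4, turned when at least 1 library was left out, and that of Kcna7 and Kcnj2 also turned under upper-quartile scaling (0.03 for both).

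Kcnj8 had 18.8, 16.9, 17.7 and 6.42 CPM in RA and 18.5, 22.2, 19.5 and 16.9 CPM in RA+Dipy, with a log2 fold change of 0.36 (SE 0.32). RA replicate 4 held the low value, and without it the estimate was 0.13. The 6 pericyte markers, which include Abcc9, summed to 436, 539, 491 and 407 CPM in RA and to 438, 542, 538 and 524 CPM in RA+Dipy, and their part in the Kcnj8 values was not tested. The log2 fold change of Abcc9 itself was 0.40 (SE 0.39), and 0.14 without RA replicate 4. Abcc8 had -0.69 (SE 0.47), and 0.02 without RA replicate 4, where it stood at 13.1 CPM against 2.88 to 4.49 CPM in the other RA libraries.

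In CPM scaled by TMM, Kcnj15 (chr16:95257558-95300260) and Kcnn1 (chr8:70842049-70863258) were the members whose groups did not overlap, 1 in each direction. Of all genes, 186 (1.46%) did not overlap upward and 161 (1.26%) downward. Kcnj15 had 9, 7, 1 and 1 counts in RA replicates 1 to 4 and 8, 11, 14 and 37 counts in RA+Dipy replicates 1 to 4. That is 0.177, 0.249, 0.0391 and 0.0845 CPM against 0.528, 0.406, 0.539 and 1.48 CPM. All 4 RA+Dipy values lay above all 4 RA values, with a log2 fold change of 2.29 (SE 0.61, unadjusted p = 0.00352 and adjusted p = 0.882 in edgeR). The estimate was 1.69 without RA+Dipy replicate 4, its highest library, and 2.61 in limma-voom (adjusted p = 0.0436). The level was near the limit of counting, and 5.27% of its exon bases lie opposite an antisense gene that unstranded counting cannot separate. Of the 6 neutrophil markers only 2 were tested and Ly6g and Cxcr2 were at 0 in some libraries. The 6 summed to 1.04, 0.641, 0.703 and 2.54 CPM in RA and 3.83, 1.22, 1.89 and 2.68 CPM in RA+Dipy, and their part in the Kcnj15 values was not tested. All 5 adipocyte markers had a positive log2 fold change and summed to 305, 212, 293 and 344 CPM in RA and 586, 281, 310 and 809 CPM in RA+Dipy. RA+Dipy replicate 4 was the highest library both in that sum and in Kcnj15. Of the 9 macrophage markers 8 had a positive log2 fold change, with sums of 91 to 267 CPM in RA and 122 to 212 CPM in RA+Dipy. The part of either cell type in the Kcnj15 values was not tested.

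Kcnn1 had 26.8, 25.6, 30 and 22 CPM in RA and 11.8, 21.6, 20 and 21.7 CPM in RA+Dipy. Every RA+Dipy value lay below every RA value on this scale, the closest being 21.7 against 22 CPM. In TPM the groups overlapped, with 14.5, 16.6, 15.7 and 6.83 in RA and 4.95, 12.6, 11.9 and 14.7 in RA+Dipy. The log2 fold change was -0.47 (SE 0.25, unadjusted p = 0.09 in edgeR). It was -0.31 without RA+Dipy replicate 1 and -0.37 without both libraries that stood apart. Kcnn3 had 0.23 (SE 0.40), and -0.02 without RA+Dipy replicate 3.

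Kcnf1, a modifier subunit, and Kcnh2, a voltage-gated pore, had negative log2 fold changes with an unadjusted p just above the 0.05 level. Kcnf1 (chr12:17172100-17176888) had 9.67, 23, 11.4 and 6.59 CPM in RA and 4.95, 10.7, 6.04 and 5.2 CPM in RA+Dipy, a log2 fold change of -0.91 (SE 0.41, unadjusted p = 0.0502). RA replicate 2 held its highest value, and without that library the estimate was -0.46. Kcnh2, the ERG channel of cardiac repolarisation, had -0.87 (SE 0.39, unadjusted p = 0.0508), with 7.52 CPM in RA replicate 4 against 2.14 to 4.08 CPM in the other RA libraries and 1.88 to 2.81 CPM in RA+Dipy. Without RA replicate 4 it was -0.43.

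Kcng4 and Kcnq5 had the smallest p-values with a positive sign after Kcnj15. Kcng4 (chr8:119623854-119635680) had 40.9, 34.5, 43.4 and 24.7 CPM in RA and 41.2, 52.4, 54.5 and 61.3 CPM in RA+Dipy. Only RA+Dipy replicate 1 lay within the RA range, and the log2 fold change was 0.54 (SE 0.25, unadjusted p = 0.0563). It was 0.51 without both libraries that stood apart (SE 0.14, unadjusted p = 0.00397 and adjusted p = 0.418). Kcnq5 (chr1:21398403-21961942) had 4.22, 8.55, 4.3 and 3.38 CPM in RA and 5.61, 8.27, 9.66 and 9.44 CPM in RA+Dipy, a log2 fold change of 0.69 (SE 0.33, unadjusted p = 0.0652). RA replicate 2 lay among the RA+Dipy libraries, and without it the estimate was 1.05. limma-voom gave 0.99 (SE 0.18, adjusted p = 0.034). Kcnt2, a sodium-activated channel, had 0.78 (SE 0.46) at levels of 0.0845 to 0.528 CPM. Without RA replicate 4, where it had 1 count, the estimate was 0.62. Kcnab1 had 0.37 (SE 0.25). Without both libraries that stood apart Kcnab1 was at 0.16. Kcnu1, the channel of sperm, had -1.18 (SE 0.54) at levels of 0.12 to 1.27 CPM, and -0.74 without both.

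**Figure D4:**
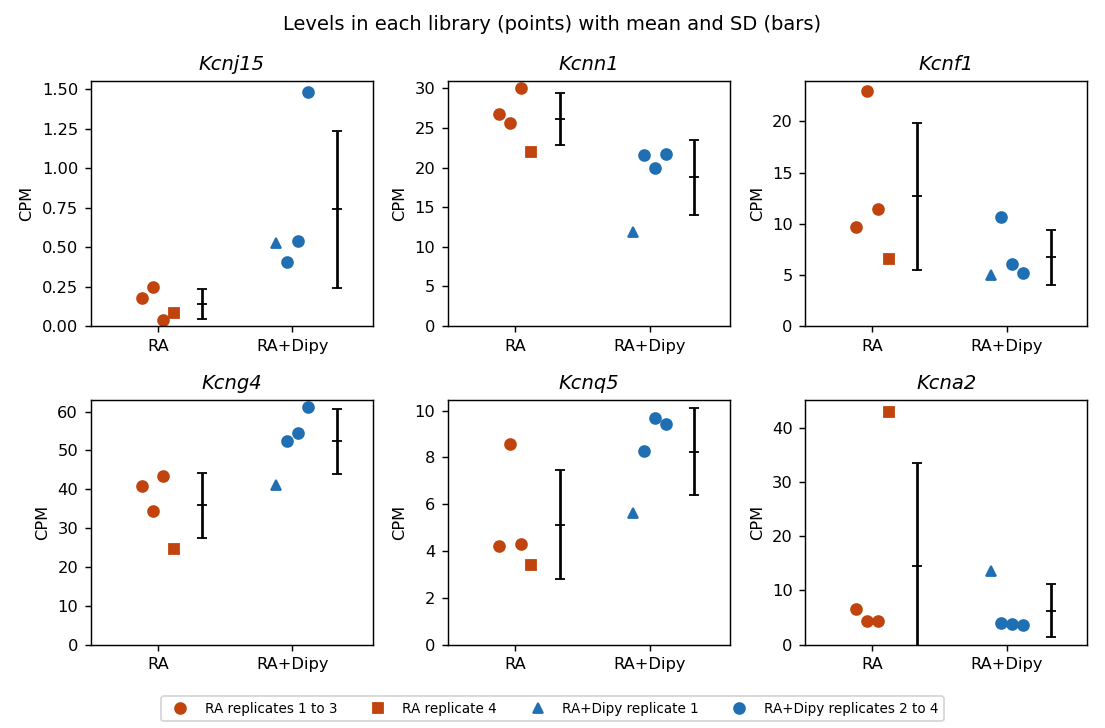
CPM (y axis) of 6 Kcn genes in the 4 RA and 4 RA+Dipy libraries (points), with the group mean and SD as bars; squares mark RA replicate 4 and triangles RA+Dipy replicate 1, and the lower SD bar of Kcna2 in RA ends at the axis. On this scale Kcnj15 and Kcnn1 show groups that do not overlap, while in TPM those of Kcnn1 overlap. The RA mean of Kcna2 includes the 42.8 CPM of RA replicate 4.

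Some members differed more between libraries of a group than between the groups. Kcna2, the axonal Kv1 subunit, had 6.56, 4.42, 4.41 and 42.8 CPM in RA and 13.6, 3.99, 3.81 and 3.52 CPM in RA+Dipy. The libraries that stood apart were the highest of their groups, and the log2 fold change of -1.22 (SE 0.80) became 0.28 on leaving out RA replicate 4, -1.92 on leaving out RA+Dipy replicate 1 and -0.44 on leaving out both. Kcna1 had -0.37 (SE 0.64), with 1.52 CPM in RA replicate 4 and 1.78 CPM in RA+Dipy replicate 1, and -0.98 without both. Kcnk3, a K2P channel of background current, was named after its values were seen. It had 2.56, 1.35, 1.52 and 27.7 CPM in RA and 4.29, 1.48, 1.65 and 6.08 CPM in RA+Dipy. Its log2 fold change of -1.26 (SE 0.97) turned positive without RA replicate 4, as given above, and was 0.16 in limma-voom. The 10 Schwann cell markers summed to 436, 307, 266 and 620 CPM in RA and 268, 281, 305 and 191 CPM in RA+Dipy, and all 10 were detected in every library. RA replicate 4 was thus the highest in that sum, while RA+Dipy replicate 1 was not. None of the 10 markers had a positive log2 fold change, and the part of nerve in these values was not tested. None of the 5 neuron markers passed the count filter, and Snap25, Syt1, Nefl and Rbfox3 were at 0 in some libraries.

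Kcnn4 had 1.62, 1.1, 0.82 and 6.25 CPM in RA and 1.78, 0.775, 1.42 and 0.8 CPM in RA+Dipy. The log2 fold change was -0.99 (SE 0.64), and -0.01 without RA replicate 4, the highest library. In the same library the 9 macrophage markers summed to 267 CPM, against 91 to 126 CPM in the other RA libraries and 122 to 212 CPM in RA+Dipy. The 5 erythroid markers summed there to 1545 CPM, against 149 to 263 CPM in the other RA libraries and 153 to 799 CPM in RA+Dipy. All 9 macrophage and all 5 erythroid markers were detected in every library, and the part of these cells in the Kcnn4 values was not tested. The 5 T cell markers found in the tables summed to 1.41 to 3.3 CPM in RA and 1.06 to 2.12 CPM in RA+Dipy, with Cd3d, Cd3g, Cd2 and Lck at 0 in some libraries.

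Kcnma1 had 24.2, 28.1, 26.6 and 18.6 CPM in RA and 48, 28.1, 25.2 and 26 CPM in RA+Dipy, a log2 fold change of 0.38 (SE 0.28) that was 0.12 without RA+Dipy replicate 1 and 0.02 without both libraries that stood apart. Kcnmb1 had -0.07 (SE 0.39), and the sign turned to 0.04 without both. The 6 smooth muscle markers summed to 347, 292, 340 and 637 CPM in RA and 254, 305, 296 and 244 CPM in RA+Dipy. RA+Dipy replicate 1, the highest library for Kcnma1, held 254 CPM of these markers, within the range of the other RA+Dipy libraries. Of the 6 markers 1 had a positive log2 fold change, and their part in the Kcnma1 values was not tested. Of the 42 tested members, RA replicate 4 was the lowest of the 8 libraries in 10 and the highest in 11, and RA+Dipy replicate 1 the lowest in 16 and the highest in 7.

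Other genes of membrane excitability and potassium handling were read from a list of 50, of which 45 were tested. None was called, 18 had a positive and 27 a negative log2 fold change, and their median was -0.16, beside 0.02 for all genes. The list's median on leaving out both libraries that stood apart was -0.07. With all libraries 3 had an unadjusted p under 0.05, all negative, beside 2.15% of all genes in that direction. They included Cntnap2 (-0.89, SE 0.36) and Cacng1 (-1.16, SE 0.48), named after their values were seen. Cacng1, a calcium channel gamma subunit of muscle, had -0.45 without RA replicate 4 and the same without both libraries that stood apart (unadjusted p = 0.108). Cntnap2, an axonal protein that clusters Kv1 channels, had -0.83 without both (unadjusted p = 0.0533). Tmem38a, the counter-ion channel of the sarcoplasmic reticulum, had 1463 ± 326 TPM (SD, n = 8) and a log2 fold change of -0.20 (SE 0.25). Scn4a, the sodium channel that starts the muscle action potential, had 101 ± 50.1 TPM, of the order of Kcnj11 and Kcna7. Its log2 fold change was -0.03 (SE 0.45), and 0.29 without RA+Dipy replicate 1. Clcn1, the chloride channel that carries most resting conductance of the fibre, had 45.4 ± 26.6 TPM and a log2 fold change of 0.20 (SE 0.55). It was 0.54 without RA+Dipy replicate 1 and -0.02 without RA replicate 4.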

How the data were processed

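Poly(A) RNA of gastrocnemius was sequenced from 4 RA and 4 RA+Dipy mice. The authors deposited raw read counts per protein-coding gene, not normalized. Single reads of 100 bases were trimmed with fastp 0.20.0, aligned with STAR 2.7.3a (GRCm38.p6) and counted without strand by HTSeq, per the design text and the submitters' processing notes, and the authors' own tests used DESeq2 1.44.0. Which annotation release they used is not given here, and the labels and the design text name different library kits. Libraries held 16.4 to 50.6 M counts; the limits for a count of 0 (3 counts) cover counting error only (no molecular identifiers). Counts of the 24 symbols on more than 1 line were summed. Results of some genes, and some sequences, are not reported here.

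Genes were kept by filterByExpr (minimum count 10), scaled by TMM and tested by edgeR 4.0.16 (R 4.3.3; robust quasi-likelihood), with group as the sole term, two-sided, with Benjamini-Hochberg adjustment over the 12755 genes kept and a threshold of 0.05. The script was tested on simulated data. The SE of a fold change was its size divided by the root of the F statistic. DESeq2 1.42.0 and limma 3.58.1 were alternatives. Lengths and positions come from GENCODE vM21 (GRCm38), in which all 93 members had a length. Of them, 28 share exon bases with another gene, 26 with one on the opposite strand; 23 hold an exact 100-base match to a transcript of another gene, in each case one that shares their exon bases. Named members were the 15 highest by mean TPM, the 5 smallest p in each direction and 16 fixed by name, with partner genes fixed by name; 24 members and 5 partner genes of these are reported, besides Kcnk3, Cntnap2 and Cacng1, named after their values were seen. The members, lists, tests and alternatives were chosen with earlier results of these data known. Each library came from a separate mouse by the group sizes in the design text, and chi-square over its degrees of freedom was at least 29.3 for any pair within a group.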

Additional observations from a re-analysis of the deposited data

Results flagged for a closer look

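In 10 of 48 groups of 4 libraries examined, counting each named member once per group, 1 library lay far from the other 3 (by Dixon's ratio of gap to range). Chance alone gives about 1 in 20 independent groups. These groups come from the same 8 libraries and are not independent, so the rate is no test of them. Some members were picked by a small p, and Kcnk3 was named after its values were seen. Of the 10 flagged values 5 were in RA replicate 4, 4 in RA+Dipy replicate 1 and 1 in RA+Dipy replicate 4.

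In RA replicate 4, Kcnj8 stood at 6.42 CPM against 16.9 to 18.8 CPM in the other RA libraries. Kcnab1 stood there at 2.79 CPM against 3.76 to 3.85. Other members were high in that library: Kcnn4 stood at 6.25 CPM against 0.82 to 1.62, Kcna2 at 42.8 CPM against 4.41 to 6.56, and Kcnk3 at 27.7 CPM against 1.35 to 2.56.

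In RA+Dipy replicate 1, Kcnn1 stood at 11.8 CPM against 20 to 21.7 CPM in the other RA+Dipy libraries. Kcnma1 stood there at 48 CPM against 25.2 to 28.1, Kcna1 at 1.78 CPM against 0.295 to 0.48, and Kcna2 at 13.6 CPM against 3.52 to 3.99. In RA+Dipy replicate 4, Kcnj15 stood at 1.48 CPM against 0.406 to 0.539.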

How the results depend on the processing

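Of the 31 named genes with a fold change, 18 kept their sign in all 16 alternatives run, 8 of which left out 1 library, and 13 changed sign in at least 1. Of 491 gene and alternative pairs, 42 changed sign, 24 of them with 1 library left out. No gene passed an adjusted p under 0.05 in any alternative except the weighted limma-voom fit, with 133 genes and 2 members called. The members at an unadjusted p under 0.05 numbered 2 with all libraries and the main settings, 6 without the low-count filter, 1 at a mean of at least 1 CPM, 6 in DESeq2, 12 in limma-voom, 5 without RA replicate 4 and RA+Dipy replicate 1, and 1 to 6 with 1 library left out. Of all genes tested, 3.83% were at that level in the main fit, 5.8% in DESeq2 and 28.5% in limma-voom. The share was 11.4% without RA replicate 4 and RA+Dipy replicate 1. No share is given for the other fits, so their member counts are not set against all genes. Without the filter 92 members were tested, and with 1 library left out 42 to 43. The median log2 fold change of tested members ran from -0.08 to 0.08 with 1 library left out, and that of the partner genes was 0.03 in limma-voom. The causes were not tested.

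Sign changes by setting were as follows. Upper-quartile factors gave 0.03 for Kcna7, 0.03 for Kcnj2 and 0.04 for Scn4a. For Kcnc4, near 0 throughout, the value was -0.01 with DESeq2 size factors, -0.01 in DESeq2 and -0.00 at a mean of at least 1 CPM. limma-voom gave 0.08 for Kcnj12, 0.04 for Kcnmb1, 0.16 for Kcnk3 and 0.16 for Scn4a. Without both libraries that stood apart the values were 0.04 for Kcna7, 0.12 for Kcnj12, 0.04 for Kcnc1, -0.02 for Kcna5, 0.04 for Kcnmb1, 0.74 for Kcnk3 and 0.19 for Scn4a. With 1 library left out, fold changes ran from -0.14 to 0.15 for Kcna7, from -0.14 to 0.11 for Kcnc4, from -0.27 to 0.02 for Kcnj12, from -0.28 to 0.12 for Kcnj2, from -0.22 to 0.05 for Kcnc1 and from -0.07 to 0.34 for Kcna5. They ran from -0.25 to 0.14 for Kcnmb1, from -0.02 to 0.59 for Kcnn3, from -1.92 to 0.28 for Kcna2, from -1.73 to 0.89 for Kcnk3, from -0.92 to 0.02 for Abcc8, from -0.02 to 0.54 for Clcn1 and from -0.23 to 0.29 for Scn4a.

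Replicate numbers gave no sign of a pairing. Deviations of same-numbered libraries from their group means had correlations of -0.30, 0.20, 0.27 and -0.43. By this measure 1 of the 4 numbers was matched best by its own partner. The group means include RA replicate 4 and RA+Dipy replicate 1, which stood apart, so the check cannot exclude a pairing. With the replicate block edgeR called 0 genes, 2 members had an unadjusted p under 0.05, the member median was -0.06, and Kcnc4 had -0.01. Counting error limits members below about 1 CPM, such as Kcnj15.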
